A study of Canis lupus familiaris with 12 samples.

Results

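The genes described here make cholesterol and fatty acids, or control their making. They were chosen by name, as 30 gene symbols, with earlier results of these data known. Counts and medians of the members set against all genes are therefore descriptive and not independent support. Of these, 28 matched a named gene in the deposited tables, and 2 (IDI1 and EBP) are not analysed here. MSMO1 has 2 rows, a gene of 6 annotated exons on chromosome 15 (MSMO1_1) and a copy of 1 exon on chromosome X (MSMO1_2), which gives 29 rows of 29822 genes in all. All 29 rows passed the filter on low counts, which left 13358 genes for testing.

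Cells build cholesterol from acetyl-CoA through mevalonate, farnesyl diphosphate, squalene and lanosterol, and they build fatty acids from the same acetyl-CoA through malonyl-CoA. The transcription factors SREBP-1 and SREBP-2, encoded by SREBF1 and SREBF2, drive most of these genes: the escort protein SCAP carries them out of the endoplasmic reticulum when sterol is scarce, and INSIG1 holds SCAP back when sterol is plentiful. Lymphocytes that enter division are known to need new membrane lipid and to switch on this programme.

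Messenger RNA was measured in canine peripheral blood mononuclear cells (PBMCs), the lymphocytes and monocytes of blood. The cells came from healthy male beagles, free of specific pathogens, that serve as blood donors at a veterinary hospital, and were separated on a density gradient. The 4 groups of 3 libraries were cells cultured for 24 h untreated, with ALA at 1.0 mM (an abbreviation the labels do not spell out), with concanavalin A (ConA) at 0.5 µg/ml, or with both agents at these doses. ConA is a plant lectin that activates T cells. All groups shared a medium with 10% fetal bovine serum, which itself carries lipoprotein cholesterol. The titles number the libraries 1 to 3 in each group. Nothing in the labels says whether a number is 1 animal or whether cells were pooled. The p-values below therefore reflect only how far these samples differ, and part of that may be technical.

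The libraries held 13390692 to 21517099 exon reads, of which the members took 0.098 to 0.265%. Markers of T cells (13 genes), B cells (8) and monocytes (7) were detected, none at 0 in all libraries. Summed over a list, in CPM (normalised read counts scaled to library size), untreated libraries held 1639 to 2353 for T cells, 1516 to 2488 for B cells and 432 to 784 for monocytes. The 4 libraries of number 1 stood apart, with 3.59 to 4.82% of exon reads from mitochondrial genes against 11.85 to 23.35% in the other libraries. Their share of junction-spanning reads was 52.4 to 54.2%, against 36.1 to 43.4%. Of the 29 member rows, 14 had their highest CPM in number 1 in 4 of 4 groups and 5 their lowest. The share of all genes with such a position was not counted, so these numbers are not read as a result about the members.

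In untreated cells the members covered a wide range of levels per length (the deposited TPM, in which counts are scaled by exon length and library). FDPS, which makes farnesyl diphosphate, led at a mean of 152 TPM (123 to 168 over 3 libraries). SREBF2, at 78.9 TPM, ran from 42.7 to 140 and overlapped the 3 next in order: PMVK (53), MSMO1_1 (46.3) and ACSS2 (45.6). FASN, the fatty acid synthase, stood in the middle at 21 TPM (10.5 to 37.2). SREBF1 (6.34 TPM) was far below SREBF2, with no overlap between their ranges. ACACA, the first committed enzyme of fatty acid synthesis, MSMO1_2 and ELOVL6, which lengthens fatty acids, closed the order at 2.31, 1.62 and 0.738 TPM. ELOVL6 had 85 exon reads over all 12 libraries and MSMO1_2 had 257, so neither can show a change at this depth short of a very large one. MSMO1_2 may also share reads with MSMO1_1: 89.5% of its reads were unique to it.

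With ConA alone, 6 of the 17 sterol synthesis rows rose (12 with the replicate number as a block), along with FASN and the sterol carrier STARD4, and the lipin LPIN1 fell. Among all genes tested 9.93% rose (21.3% with the block) and 8.57% fell (21.2%). Summed over the 17 rows of sterol synthesis enzymes, untreated libraries 1, 2 and 3 held 509, 449 and 595 CPM, and ConA libraries held 1125, 1129 and 1062, or 2.21, 2.51 and 1.79 times as much. The 6 fatty acid genes summed to 343, 187 and 253 CPM in untreated libraries and to 681, 407 and 369 with ConA. By contrast the 4 genes of SREBP regulation summed to 371, 298 and 330 CPM untreated and to 367, 325 and 297 with ConA, with ratios of 0.99, 1.09 and 0.899. The ConA libraries thus lay above all untreated libraries in the sums of both enzyme groups, and the summed ranges of the regulators overlapped. A sum follows its most abundant genes. FASN went from a mean of 91 to 279 CPM, while 3 of the 6 fatty acid genes had estimated log2 fold changes below 0. SREBF2 and SCAP led the regulator sum, at means of 149 and 111 CPM untreated. With the block, 2 of the 4 regulators rose and 1 fell, where 21.3% of all genes rose and 21.2% fell. A count over so few genes is not read as a result about the regulators. In RNA from mixed cells, a change in the share of a cell type and a change in RNA per cell cannot be told apart.

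**Figure D1:**
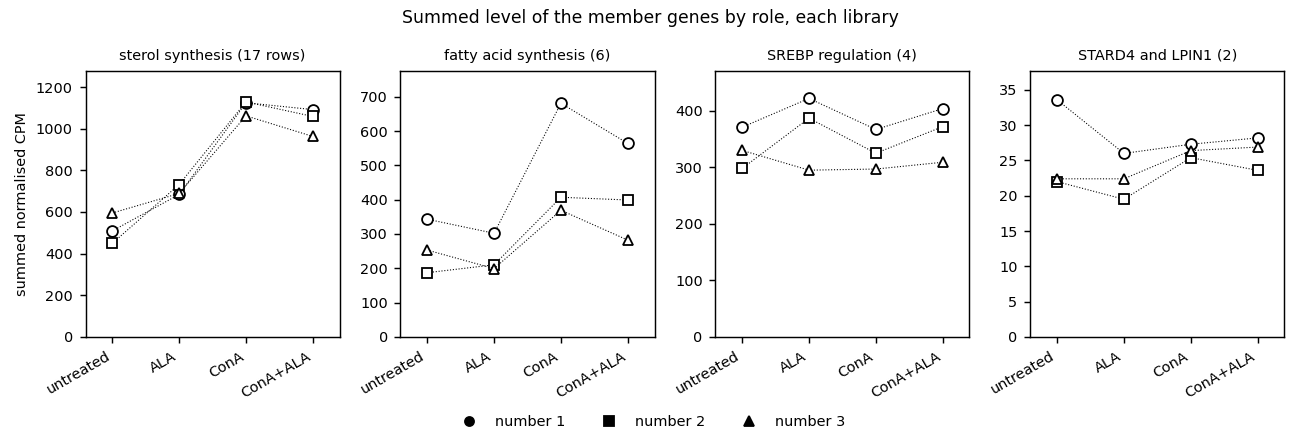
Summed normalised CPM of the member genes by role (y axis, from 0) in each of the 12 libraries, by treatment (x axis), with dotted lines joining libraries of the same number. The 3 ConA libraries lie at 1062 to 1129 CPM for sterol synthesis against 449 to 595 in untreated cells, while the sum of the SREBP regulation genes shows no such step.

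Of the 29 rows, 8 rose with ConA and 1 fell (quasi-likelihood F-test of edgeR, p adjusted by Benjamini-Hochberg over all genes tested and called under 0.05). Among all genes tested 9.93% rose and 8.57% fell. The median log2 fold change was 0.72 over the members, 1.03 over the 17 sterol rows and 0.25 over the 6 fatty acid genes, against −0.05 over all genes. With the replicate number as a block in the model, 18 rows rose and 3 fell, where 21.3% of all genes rose and 21.2% fell. The sterol rows accounted for 6 of the 8 rises. Without ConA 1 or without untreated 2 the rises numbered 5. The fall was lost without untreated 1, untreated 2, ConA 1, ConA 2 or ConA 3, and there were 2 falls without ALA 1 or ConA+ALA 1. In the block model without number 1, 11 rows rose and 1 fell, and without number 2 the counts were 13 and 2. Within numbers, 11 of 17 sterol rows were higher with ConA in 3 of 3 and 0 were lower in 3 of 3, where 30.6% and 34.3% of all genes were.

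**Figure D2:**
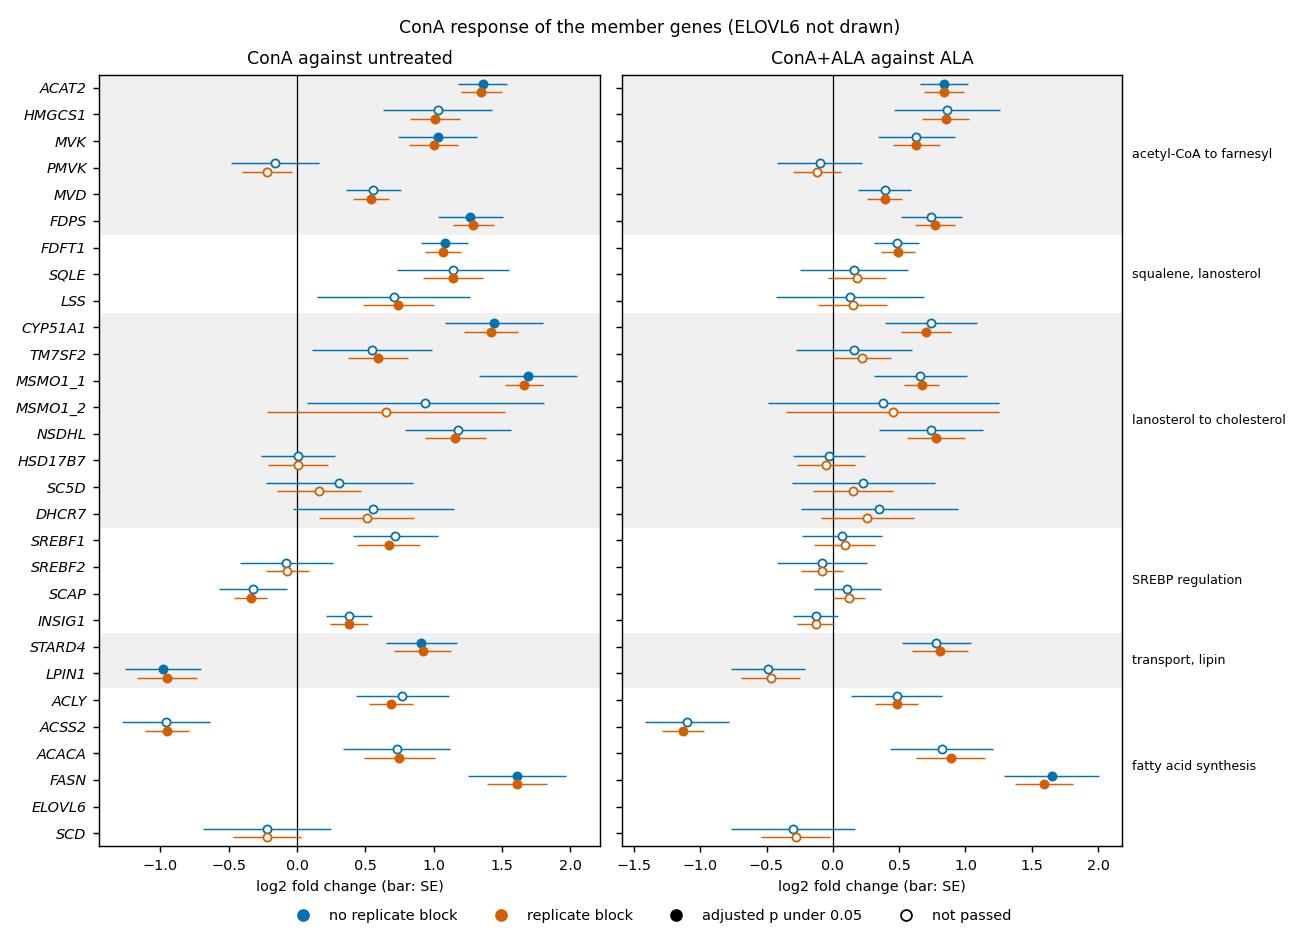
Log2 fold change with ConA (x axis, bars are SE) for each member row except ELOVL6, ordered by role, without ALA (left) and with ALA (right), in the model without (blue) and with (orange) the replicate block; filled points passed at adjusted p under 0.05. Most estimates move little between the models and the SEs shrink with the block, which takes the rises on the left from 8 to 18 and those on the right from 2 to 13.

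The steps from acetyl-CoA to farnesyl diphosphate held 3 of the 8 rises. ACAT2, a thiolase that joins 2 molecules of acetyl-CoA (ENSCAFG00000000720, CanFam3.1 chromosome 1, 49011706 to 49029327, 9 annotated exons), stood at 25.7, 29.8 and 35.5 CPM in untreated libraries 1, 2 and 3 and at 86.1, 76.6 and 70.5 with ConA. The lowest ConA library was above the highest untreated one, and the log2 fold change was 1.36 ± 0.18 (SE, adjusted p = 0.00073). It overlaps TCP1 on the opposite strand by 46 bases. FDPS (ENSCAFG00000030749, chromosome 7, 42241107 to 42250225, 14 exons) went from 112, 128 and 190 CPM to 294, 383 and 360, again without overlap (1.27 ± 0.24, adjusted p = 0.0038). Only 82.8% of the exon reads of FDPS were unique to it, and the call held with unique reads alone. MVK, the kinase that phosphorylates mevalonate (ENSCAFG00000010834, chromosome 26, 17497513 to 17519385, 13 exons), had the tightest untreated values, 19.6, 20.9 and 19.4 CPM, and 48, 41.7 and 32.5 with ConA. The groups did not overlap (1.03 ± 0.29, adjusted p = 0.029), yet the call was lost without untreated 1, 2 or 3 or without ConA 1 or 2 (adjusted p 0.07 to 0.087), and with total gene reads (0.1).

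The other 3 rows of this stretch did not pass without the block. HMGCS1, which forms HMG-CoA, was estimated at 1.03 ± 0.40 (adjusted p = 0.1), and it rose in the block model (1.01 ± 0.18, adjusted p = 0.00035). MVD, which makes isopentenyl diphosphate, was estimated at 0.56 ± 0.20 (adjusted p = 0.074), and it too rose in the block model (0.54 ± 0.13, adjusted p = 0.003). PMVK, the kinase between MVK and MVD, had an estimate below 0 (−0.16 ± 0.32) and passed in neither model.

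Among the 3 genes that turn farnesyl diphosphate into lanosterol, FDFT1 rose. FDFT1, the squalene synthase at the branch point to sterols (ENSCAFG00000007948, chromosome 25, 26060386 to 26093582, 16 exons), stood at 45.7, 42.4 and 48.6 CPM untreated and at 91, 108 and 89.3 with ConA. Every ConA library was well clear of the untreated ones, and the fold change was 1.08 ± 0.17 (adjusted p = 0.0014). SQLE, the epoxidase that commits squalene to sterols, had a similar estimate with a wider error (1.14 ± 0.41, adjusted p = 0.076; with the block 1.14 ± 0.22, adjusted p = 0.0011). LSS, which closes the rings to lanosterol, passed with the block alone (0.74 ± 0.26, adjusted p = 0.032).

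From lanosterol to cholesterol, 2 of 8 rows rose without the block and 4 with it, where 9.93% and 21.3% of all genes rose. MSMO1_1, the methyl sterol oxidase (ENSCAFG00000047802, chromosome 15, 61293769 to 61307285, 6 exons), was at 35.2, 50.7 and 64.5 CPM untreated and at 95.1, 210 and 182 with ConA. The groups did not overlap, number 1 was the lowest in each, and the fold change was 1.69 ± 0.36 (adjusted p = 0.007), the highest estimate among the members. A share of 92.7% of its exon reads was unique to it, it overlaps KLHL2 on the same strand, and the call held with unique reads alone. CYP51A1, the lanosterol demethylase (ENSCAFG00000001945, chromosome 14, 17746656 to 17766658, 10 exons), was at 25.6, 11.4 and 17.8 CPM untreated and at 73.3, 34 and 41.3 with ConA. Here number 1 was the highest in both groups (1.44 ± 0.36, adjusted p = 0.016), and the call was lost without ConA 1 or untreated 2 (0.065 in each) and with total gene reads (0.094). NSDHL, a sterol dehydrogenase, passed with the block (1.16 ± 0.22, adjusted p = 0.00059).

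TM7SF2, a sterol reductase, also passed with the block (0.59 ± 0.22, adjusted p = 0.042), but its call did not hold with the block on unique exon reads (0.35, adjusted p = 0.33). It overlaps VPS51 on the same strand by 1507 bases. The late enzymes did not pass in either model: HSD17B7 was at 0.01 ± 0.27, SC5D at 0.31 ± 0.54, DHCR7, which catalyses the last step of one branch to cholesterol, at 0.56 ± 0.59, and MSMO1_2 at 0.94 ± 0.87. The errors of SC5D, DHCR7 and MSMO1_2 leave room for changes as large as those of the genes that passed.

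**Figure D3:**
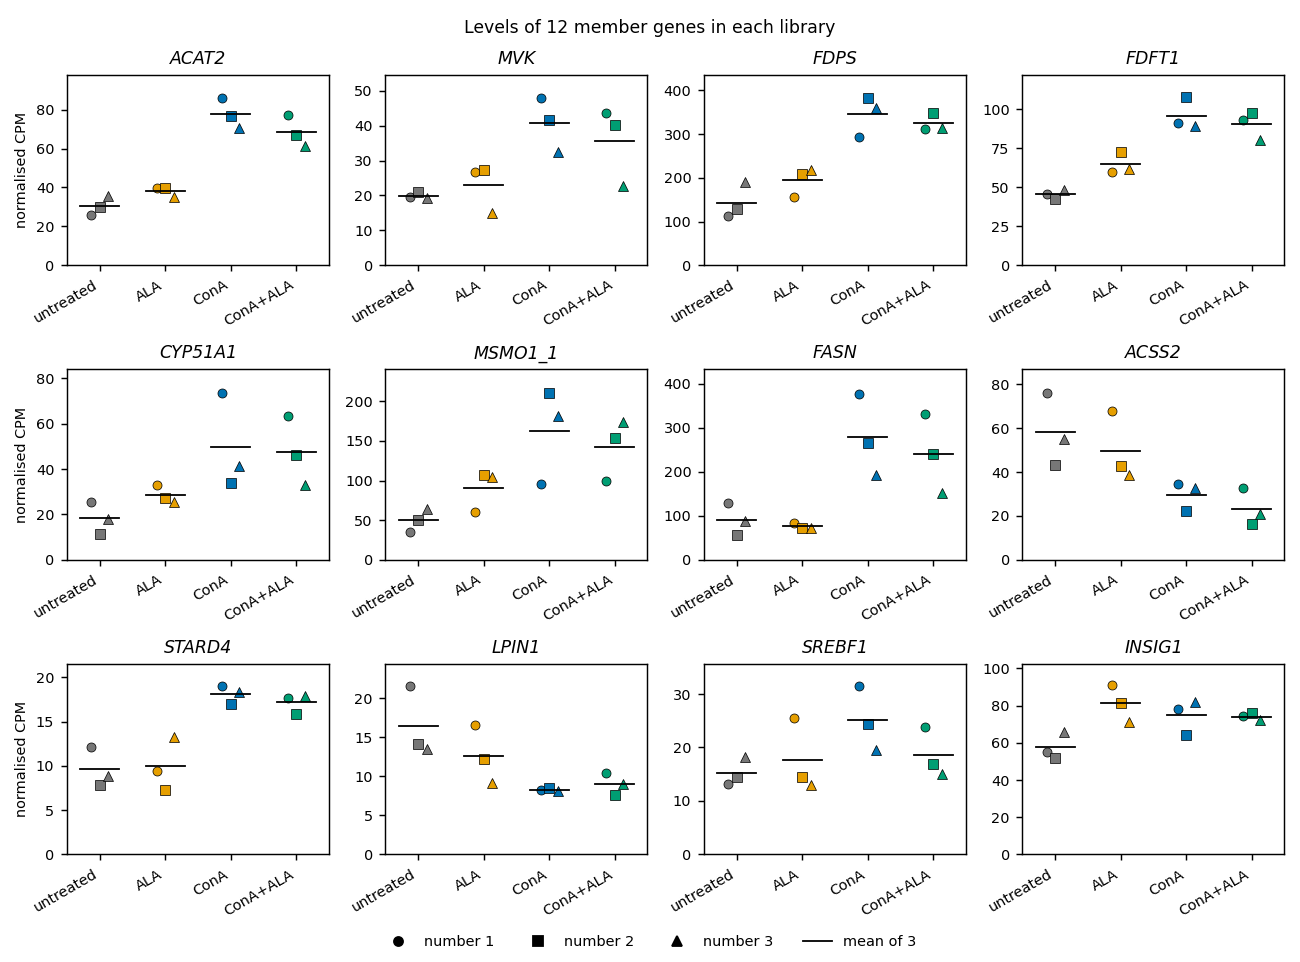
Normalised CPM (y axis, from 0) of 12 member rows in each library, by treatment (x axis); symbols give the library number and horizontal lines the mean of 3. ACAT2, FDPS, FDFT1, MSMO1_1 and FASN show ConA libraries clear of untreated ones, and LPIN1 and ACSS2 show the reverse. INSIG1 spans 52 to 91.2 CPM. Its ConA libraries overlap the untreated ones, and its ALA libraries lie above them.

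None of the 4 regulators passed with ConA without the block. SREBF1 (ENSCAFG00000018436, chromosome 5, 41663773 to 41686776, 21 exons) stood at 13.1, 14.4 and 18.3 CPM untreated and at 31.5, 24.3 and 19.6 with ConA. The groups did not overlap, though number 3 hardly differed, and the fold change of 0.72 ± 0.31 did not pass (adjusted p = 0.12; with the block 0.67 ± 0.23, adjusted p = 0.029). INSIG1 (ENSCAFG00000005081, chromosome 16, 18259935 to 18271378, 8 exons) stood at 55, 52 and 65.6 CPM untreated and at 78.4, 64 and 81.7 with ConA. Those ranges overlapped, while all 3 numbers were higher with ConA (0.38 ± 0.17, adjusted p = 0.16; with the block 0.38 ± 0.14, adjusted p = 0.04). SREBF2, the main factor for the sterol enzymes, was at −0.08 ± 0.34 (adjusted p = 0.9). SCAP passed with the block as lower (−0.34 ± 0.12, adjusted p = 0.032). A share of 59.9% of the SCAP reads was unique to it, and it overlaps PTPN23 on the opposite strand.

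STARD4 and LPIN1 parted ways. STARD4, a carrier of cholesterol between membranes (ENSCAFG00000030762, chromosome 3, 1154358 to 1170469, 10 exons), went from 12.1, 7.82 and 8.9 CPM to 19, 17 and 18.3. The ConA libraries lay close together and above all untreated ones (0.91 ± 0.26, adjusted p = 0.031). LPIN1, a phosphatidate phosphatase of glycerolipid synthesis (ENSCAFG00000003621, chromosome 17, 8348886 to 8478863, 33 exons), went from 21.5, 14.2 and 13.5 CPM to 8.28, 8.48 and 8.17, again without overlap (−0.98 ± 0.28, adjusted p = 0.031). Both calls were fragile: STARD4 lost its call without ConA 1, 2 or 3 or without untreated 2 or 3 (adjusted p 0.059 to 0.11), and LPIN1 without untreated 1 or 2 or without ConA 1, 2 or 3 (0.054 to 0.13). Neither call held without the filter on low counts (0.064 and 0.061) or with the compared groups alone (0.066 and 0.06). LPIN1 was also lost with total gene reads (0.26) and in the block model without number 1 (0.091). Introns held 73.4 to 83.1% of the gene reads of STARD4 in untreated libraries.

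In fatty acid synthesis, FASN rose, and ACSS2 had an estimate below 0. FASN (ENSCAFG00000006006, chromosome 9, 232963 to 249092, 39 exons) stood at 129, 55.8 and 88.1 CPM untreated and at 378, 266 and 192 with ConA. Its ConA libraries all exceeded the highest untreated one, and the fold change was 1.61 ± 0.36 (adjusted p = 0.0099). ACSS2, which makes acetyl-CoA from acetate (ENSCAFG00000007637, chromosome 24, 23928838 to 23972651, 20 exons), stood at 76, 43.3 and 55.2 CPM untreated and at 34.4, 22.1 and 32.8 with ConA. Every ConA library was below every untreated one, yet the change did not pass (−0.96 ± 0.32, adjusted p = 0.057); with the block ACSS2 fell (−0.95 ± 0.16, adjusted p = 0.0002). The annotation places GSS over all of ACSS2 on the opposite strand, and the deposited tables count 100% of the exon reads of ACSS2 as unique to it.

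ACLY, which makes acetyl-CoA from citrate, rose with the block (0.69 ± 0.16, adjusted p = 0.0029; 0.77 ± 0.34, adjusted p = 0.14 without it). ACACA rose with it as well (0.75 ± 0.26, adjusted p = 0.029; 0.73 ± 0.39, adjusted p = 0.22 without it). SCD, which introduces the double bond into stearate, passed in neither model (−0.22 ± 0.47). The sources of acetyl-CoA, ACLY and ACSS2, therefore passed in opposite directions in the block model.

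ACAT2, FDPS, FDFT1, MSMO1_1 and FASN kept their calls with ConA in all 12 fits that left out 1 library. Only the fits without an untreated or ConA library change the compared groups. Other cell features moved in the ConA libraries as well. Of 9 markers of dividing cells 8 rose with ConA, from a summed 170 to 263 CPM in untreated libraries to 986 to 1175. Monocyte markers summed to 432 to 784 CPM untreated and to 101 to 349 with ConA, and 2 of 7 fell (6 with the block). T cell markers summed to 1639 to 2353 and to 1067 to 1543 CPM, of which 3 of 13 fell and 1 rose (9 and 1 with the block). B cell markers summed to 1516 to 2488 and to 1391 to 2433 CPM, of which 2 of 8 fell (6 with the block). CD79A alone made up 1328 to 1883 CPM of the B cell sum untreated and 1290 to 2075 with ConA. Estimates of the other 7 B cell markers lay below 0. Neutrophil markers summed to 200 to 431 CPM untreated and to 73.9 to 155 with ConA, and 3 of 4 tested fell. Markers of natural killer or cytotoxic cells summed to 83.6 to 202 and to 210 to 578 CPM, of which 1 of 6 rose and 1 fell. Among all genes 9.93% rose and 8.57% fell, and 21.3% and 21.2% with the block. The part of these marker shifts in the member results was not tested.

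ConA was next compared in the presence of ALA (ConA with ALA against ALA, n = 3 each), which uses other libraries than the comparison above but the same model and spread. Of the 29 rows 2 rose and 0 fell, against 5.09% and 3.03% of all genes, and with the block 13 rose and 1 fell, against 15.8% and 14.3%. The median over members was 0.38 (sterol rows 0.39, fatty acid genes 0.65), against −0.07 over all genes. The fatty acid median includes ELOVL6, which has too few reads to show a change. ELOVL6 was estimated at 2.29 ± 1.83 here and at −1.66 ± 1.69 with ConA alone. The fatty acid medians of the 2 comparisons are therefore not set against each other. At an unadjusted p under 0.05 there were 7 members, where 23% of all genes were. DESeq2 called 3 members higher and 1 lower, where it called 958 of 14588 genes higher and 767 lower.

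The 2 rises were ACAT2 and FASN. ACAT2 stood at 39.6, 39.7 and 35.2 CPM with ALA and at 77.2, 67.2 and 61.1 with both agents, without overlap (0.84 ± 0.18, adjusted p = 0.015). FASN stood at 84.5, 72.5 and 73.4 CPM with ALA and at 332, 240 and 151 with both, also without overlap (1.65 ± 0.36, adjusted p = 0.017). Both calls were lost without ALA 1, ALA 2, ConA+ALA 1 or ConA+ALA 2 (adjusted p 0.051 to 0.068 for ACAT2 and 0.053 to 0.076 for FASN), which leaves a count of 0. FASN was also lost with total gene reads (0.053). Without ALA 3 the rises numbered 3, and without ConA+ALA 1 there was 1 fall. In the block model the rises fell to 5 without number 1 and 7 without number 2.

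Levels of the other named rows in these libraries showed smaller steps. FDPS was at 156, 209 and 217 CPM with ALA and at 312, 349 and 313 with both (0.74 ± 0.23, adjusted p = 0.075; with the block 0.77 ± 0.15, adjusted p = 0.0011). FDFT1 was at 60.1, 72.9 and 61.5 CPM with ALA and at 93.5, 98 and 80.6 with both (0.48 ± 0.17, adjusted p = 0.099; with the block 0.49 ± 0.13, adjusted p = 0.0098). In both genes the groups did not overlap. STARD4 showed the same separation, at 9.43, 7.26 and 13.3 CPM against 17.7, 15.9 and 17.9 (with the block 0.81 ± 0.21, adjusted p = 0.01). MSMO1_1, at 60.2, 107 and 104 CPM against 100, 154 and 174, overlapped between groups but was higher in each number (with the block 0.67 ± 0.13, adjusted p = 0.0014). MVK (26.6, 27.3 and 14.9 against 43.7, 40.2 and 22.8 CPM) and CYP51A1 (33, 27.3 and 25.7 against 63.6, 46.3 and 33.2) passed with the block as well (adjusted p = 0.014 and 0.012).

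ACSS2 was the 1 fall in the block model, at 67.7, 42.9 and 38.8 CPM with ALA and at 32.7, 16.2 and 20.7 with both (−1.13 ± 0.16, adjusted p = 9.7e-05; without the block −1.10 ± 0.32, adjusted p = 0.058). LPIN1, at 16.6, 12.2 and 9.16 against 10.4, 7.63 and 9.01 CPM, overlapped and did not pass (−0.49 ± 0.28, adjusted p = 0.33). SREBF1 was at 25.5, 14.5 and 13 CPM against 23.8, 17 and 15, and INSIG1 at 91.2, 81.1 and 71 against 74.3, 75.8 and 72.2. Neither passed in either model (0.07 ± 0.30 and −0.13 ± 0.17).

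The effect of ALA was then examined without ConA (ALA against untreated). Sterol synthesis rows summed to 684, 732 and 689 CPM with ALA against 509, 449 and 595 untreated, 1.34, 1.63 and 1.16 times as much, and these ranges did not overlap. The fatty acid genes summed to 302, 210 and 199 CPM against 343, 187 and 253. No single member passed without the block, among 13358 genes of which 0% passed. At an unadjusted p under 0.05 there were 3 members (FDFT1, INSIG1 and MSMO1_1), where 1.16% of all genes were, and with the block 8, where 6.27% were. DESeq2 called 0 members, where it called 2 of 20949 genes higher and 1 lower. The median was 0.33 over the sterol rows and −0.23 over the fatty acid genes, against 0 over all genes. Within numbers, 9 of 17 sterol rows were higher in 3 of 3 and 0 lower in 3 of 3, where 14.8% and 15.9% of all genes were. Dividing cell markers summed to 185 to 355 CPM with ALA against 170 to 263 untreated, and monocyte markers to 327 to 1481 against 432 to 784. Neutrophil markers summed to 197 to 2341 CPM against 200 to 431. The secreted protease MMP9 made up 51.4 to 2243 CPM of this sum with ALA and 18.9 to 314 untreated. Of the 4 neutrophil markers tested, 1 had an estimate above 0 and 3 below. The part of any of these markers in the values was not tested.

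With the block 1 member rose with ALA and 0 fell, where 0.0449% of all genes (6 genes) rose and 0% fell. That member was MSMO1_1, at 35.2, 50.7 and 64.5 CPM untreated and 60.2, 107 and 104 with ALA (block 0.84 ± 0.13, adjusted p = 0.033; without the block 0.85 ± 0.35, adjusted p = 1). Its ranges overlapped, with each number higher. The call was lost in the block model without number 1, number 2 or number 3 (adjusted p = 0.16, 0.35 and 0.085). Without number 3 another member, SQLE, passed instead (1.21, adjusted p = 0.045), whose log2 ratios within numbers were 0.85, 1.62 and 0.07.

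FDFT1 and INSIG1 separated the groups without passing. FDFT1 went from 45.7, 42.4 and 48.6 CPM untreated to 60.1, 72.9 and 61.5 (0.51 ± 0.17, unadjusted p = 0.01 in edgeR's fit, adjusted p = 1). INSIG1 went from 55, 52 and 65.6 CPM to 91.2, 81.1 and 71 (0.50 ± 0.17, unadjusted p = 0.014 in edgeR's fit, adjusted p = 1). CYP51A1 also did not overlap, at 25.6, 11.4 and 17.8 CPM against 33, 27.3 and 25.7 (0.65 ± 0.35). These were the 3 members without overlap between untreated and ALA libraries. The share of all genes without such overlap was not counted, so this number is not read as a result about the members.

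On top of ConA, no member passed the test for ALA (ConA with ALA against ConA). Of all genes 0% passed without the block, and with it 0.337% rose and 0.217% fell, while 0 members passed in either model. The count of members at an unadjusted p under 0.05 was 0 without the block, where 3.33% of all genes were, and 2 with it, where 9.81% were. DESeq2 called 0 members, where it called 29 of 14190 genes higher and 26 lower. Sterol rows summed to 1092, 1059 and 963 CPM with both agents and to 1125, 1129 and 1062 with ConA, with ratios of 0.971, 0.938 and 0.906. The groups overlapped in all 29 rows, and the share of all genes with such overlap was not counted. The median was −0.09 over the sterol rows and −0.03 over all genes. Within numbers, 7 members were lower in 3 of 3 and 1 was higher (24.1% and 3.45%), where 18.1% and 16.2% of all genes were. SREBF1 was among those lower, at 31.5, 24.3 and 19.6 CPM with ConA and 23.8, 17 and 15 with both (−0.43 ± 0.30, adjusted p = 1).

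**Figure D4:**
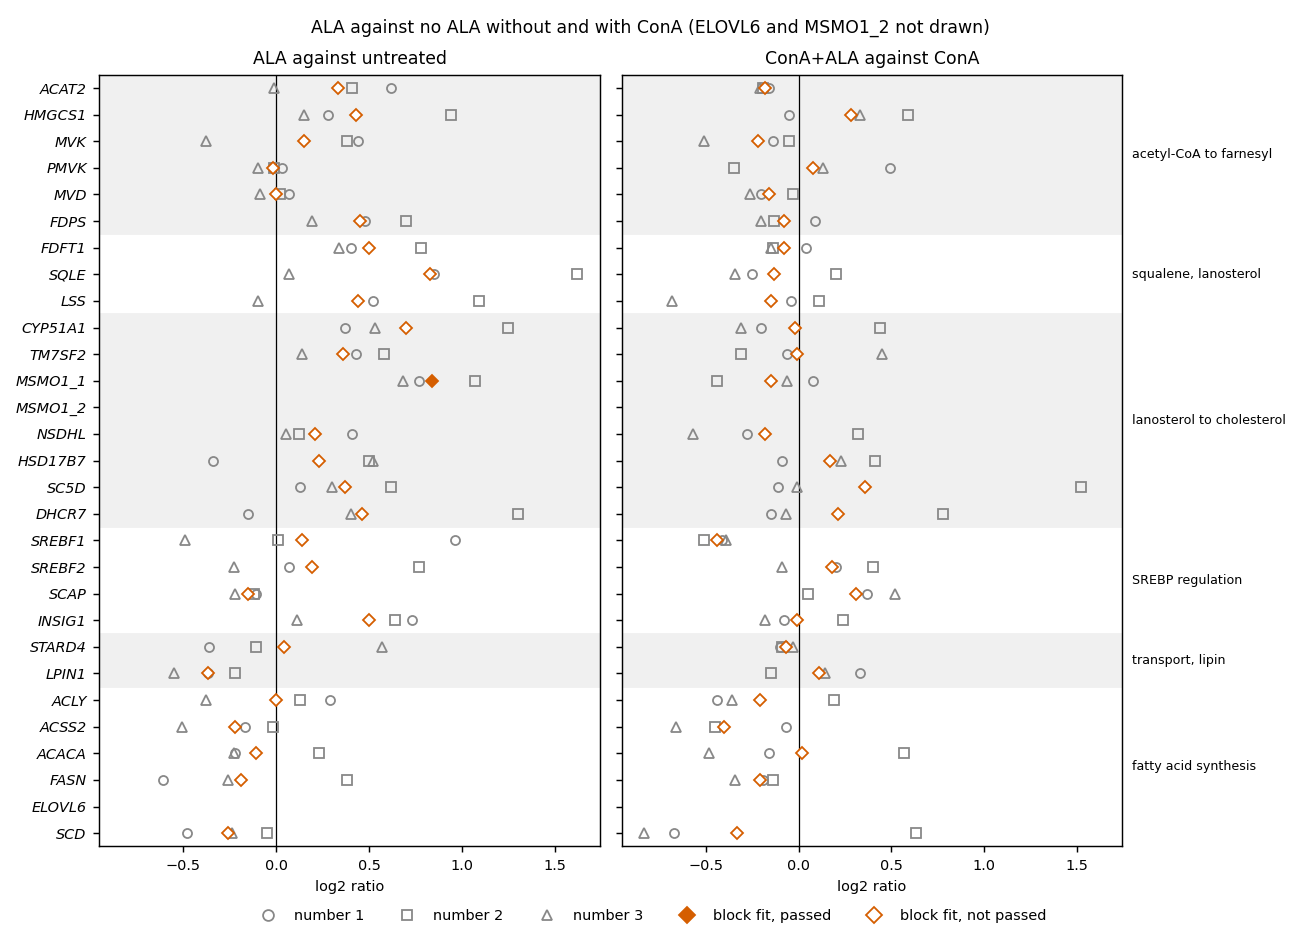
Log2 ratio with ALA (x axis) for each member row except ELOVL6 and MSMO1_2, ordered by role, without ConA (left) and with ConA (right); grey symbols are the ratios within numbers 1, 2 and 3 and diamonds the block model's estimate, filled where it passed. On the left most sterol rows lie right of 0 and MSMO1_1 is the filled diamond, and on the right the sterol rows scatter on both sides of 0 and none is filled.

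Averaged over both states, 0 members passed in either model for ALA, where 0% of all genes passed without the block and 0.517% rose and 0.255% fell with it. The counts at an unadjusted p under 0.05 were 0 without the block (2.87% of all genes) and 7 with it (9.06%). The difference between the ALA effect with and without ConA, tested as an interaction, also gave 0 members, and 0% of all genes passed in either model. At an unadjusted p under 0.05 there was 1 member (FDFT1, −0.59 ± 0.24), where 1.66% of all genes were, and with the block 9, where 7.52% were. DESeq2 called 0 members in both, where it called 37 of 16176 genes higher and 18 lower over both states. In the interaction it called 1 of 20949 genes higher and 3 lower. MSMO1_1 had the lowest p of the members in the block model, at −0.99 ± 0.19 (adjusted p = 0.16). An ALA effect that differs by ConA was therefore not shown for any member. The median interaction estimate was −0.44 over the sterol rows, with 16 of 17 below 0, against −0.02 over all genes. With the block it was −0.37 over the sterol rows, again with 16 of 17 below 0. Of the 6 fatty acid genes, 3 lay below 0 without the block. The rows were not tested as a set.

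Of 45 related genes of sterol and lipid metabolism, 43 had a row and 42 were tested. With ConA 2 rose and 1 fell, and with the block 8 and 9. Among all genes 9.93% rose and 8.57% fell, and 21.3% and 21.2% with the block. The median was 0.02, against −0.05 over all genes. LPIN2, another lipin, rose from 123, 154 and 244 to 422, 426 and 351 CPM (1.20 ± 0.25, adjusted p = 0.0062) while LPIN1 fell. The libraries did not overlap, and the call held in each of the 12 fits without 1 library. Of these fits, only those without an untreated or ConA library change the compared groups. ACSL4, which activates arachidonate, rose from 26.5, 15 and 25.5 to 65.3, 36.2 and 40.7 CPM (1.08 ± 0.33, adjusted p = 0.039), a call lost without any ConA library except ConA 2, without any untreated library, or without ConA+ALA 2 or 3 (adjusted p up to 0.14, without ConA 1). APOE, a carrier of lipids out of macrophages, fell from 24.7, 41.8 and 33.1 to 3.62, 17.6 and 5.33 CPM (−1.92 ± 0.53, adjusted p = 0.026), lost without ConA 1, ConA 3, untreated 2 or untreated 3 (0.052 to 0.095). NPC2, which hands cholesterol out of lysosomes, passed with the block alone (−0.70 ± 0.18, adjusted p = 0.0063).

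With ALA present in both arms, 1 related gene rose with ConA (LPIN2, 1.09 ± 0.25, adjusted p = 0.02) and 2 fell, APOE (−2.31 ± 0.54, adjusted p = 0.024) and NPC2 (−0.97 ± 0.23, adjusted p = 0.024). With the block 3 rose and 10 fell. Among all genes 5.09% rose and 3.03% fell, and 15.8% and 14.3% with the block. Each of the 3 calls was lost without ALA 1, ALA 2 or ConA+ALA 1. LPIN2 and NPC2 were also lost without ConA+ALA 2, and APOE and NPC2 without ConA+ALA 3 (adjusted p up to 0.1). LIPA, the lysosomal lipase, passed with the block (−2.03 ± 0.32, adjusted p = 0.0013; without it 0.15).

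With ALA, 0 related genes passed without the block in either state, over both, or in the interaction. With the block, 2 passed in cells given ConA, 1 higher and 1 lower, where 0.337% of all genes rose and 0.217% fell. FADS1, a desaturase that makes long polyunsaturated fatty acids, stood at 89, 47.4 and 41.9 CPM with ConA and at 194, 96.7 and 84.6 with both agents (block 1.06 ± 0.16, adjusted p = 0.0078; without the block 1.07 ± 0.42, adjusted p = 1). Each number was higher, with log2 ratios of 1.12, 1.03 and 1.01, though the ranges overlapped. The call was lost in the block model without number 2 (0.16). ABCG1, an exporter of cholesterol, stood at 17.8, 6.98 and 8.1 CPM with ConA and at 4.75, 1.35 and 2.85 with both, without overlap (block −1.89 ± 0.36, adjusted p = 0.03; without the block −1.86 ± 0.51, adjusted p = 0.69). That call was lost without any 1 of the numbers (0.062 to 0.4).

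Over both states the same pair passed with the block, where 0.517% of all genes rose and 0.255% fell. FADS1 was at 0.95 ± 0.11 (adjusted p = 0.0023) and ABCG1 at −1.14 ± 0.25 (adjusted p = 0.05 after rounding, under the threshold), the latter again lost without any 1 number (0.072 to 0.34). NR1H3, the sterol receptor that drives ABCG1 and ABCA1, stood at 77.4, 81.3 and 54.1 CPM with ConA and at 29, 25.4 and 22.2 with both (−1.48 ± 0.35, adjusted p = 0.53). ABCA1, another exporter, was at −0.85 ± 0.42. All 6 genes of this receptor and export list had estimates below 0 with ALA on top of ConA (−1.86 to −0.08). Their median was −0.92 against −0.03 over all genes. Of the 6, 0 passed without the block and 1 with it. The list was chosen with earlier results of these data known, so the shared direction is not independent support. A role of the receptor was not tested. Monocyte markers summed to 101 to 349 CPM with ConA and 117 to 355 with both, and dividing cell markers to 986 to 1175 and 654 to 822. Neutrophil markers summed to 73.9 to 155 CPM with ConA and to 656 to 2406 with both, without overlap, of which MMP9, a secreted protease, made up 29.9 to 117 and 570 to 2324. The receptor CXCR2 was at 0 in all of these libraries. Platelet markers summed to 5.12 to 19.4 and 20.5 to 101 CPM, and red cell markers to 18.9 to 86.3 and 36.7 to 148. The part of any of these in the values was not tested.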

How the data were processed

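Poly(A) RNA libraries were made with NEBNext Ultra II kits and sequenced with paired 75 bp ends, per the labels' protocols. Genome build CanFam3.1 comes from the submitters' processing notes. Which aligner and counting tool were used, and whether strand was used, is not given in the sources used here. Per the file headers, the authors deposited total and unique exon reads and total gene reads as raw counts, and TPM. Symbols, coordinates and exon numbers are those of the deposited tables.

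Members and gene lists were chosen with earlier results of these data known. Total exon counts, as deposited, entered edgeR 4.0.16 under R 4.3.3 (TMM normalization, filterByExpr, robust quasi-likelihood F-test, 4 group means over 12 libraries, Benjamini-Hochberg over 13358 genes). The test was checked on simulated counts that had no effect of the replicate number and less spread than these libraries without the block. That check does not show how the test without the block behaves on these data. SE is the log2 fold change over the root of F. CPM uses TMM-scaled library sizes, and ratios within numbers add 0.1 CPM. TPM served only for levels between genes. Values per library are given for members that passed without the block and for those with the smallest p of their role group with ConA or with ALA over both states. Up to 4 related genes per comparison, by smallest p, were named. A gene of the related list is not reported here.

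Whether numbers pair the libraries was checked from deviations from group means. The 18 pairs with the same number correlated at 0.376 to 0.748, against −0.498 to 0.206 for pairs with other numbers, so the replicate block is printed where it changes a call. The biological coefficient of variation was 0.422 without the block and 0.217 with it. Alternatives were the block, DESeq2 1.42.0, other size factors, no filter, unique or total gene reads, the compared groups alone, and each library or number left out. The block on unique reads was chosen after seeing the data. All 12 libraries held distinct counts. Figures used matplotlib 3.10.9.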

Additional observations from a re-analysis of the deposited data

How the results depend on the processing

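Directions did not reverse in any recomputed value of members called with or without the block. Of 253 recomputed values of members called without the block, 219 kept their side of the threshold and 34 lost it. The replicate block, which uses the pairing by number, moved the counts most. With ConA against untreated it gave 18 rises and 3 falls (18 and 2 without number 3, 13 and 2 without number 2, 11 and 1 without number 1, and 17 and 3 on unique exon reads, an alternative chosen after seeing the data), against 8 and 1 without the block. With ConA and ALA against ALA it gave 13 rises and 1 fall (13 and 1 without number 3, 7 and 1 without number 2, 5 and 1 without number 1, 13 and 1 on unique reads), against 2 and 0. With ALA against untreated it gave 1 rise (1 without number 3, 1 on unique reads), against 0. It ended no call made without it, and calls it added are given with the genes. Falls with ConA numbered 0 with no filter on low counts, with total gene reads and with the compared groups alone. They numbered 2 with DESeq2, which called 1575 of 14588 genes lower. With ConA and ALA against ALA, DESeq2 gave 1 fall, where it called 767 of 14588 genes lower. Leaving out 1 library gave 5 to 9 rises and 0 to 2 falls with ConA, 0 to 3 rises and 0 to 1 falls with ConA and ALA against ALA, and 0 throughout for ALA. Fits on the compared groups alone were not run for ALA over both states or the interaction, which use all groups. Depth limits ELOVL6 (85 reads in all) and MSMO1_2 (257). With 3 libraries a group, leaving out a number leaves 2.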
